A study of Mus musculus with 12 samples.

Results

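The genes Mtcl1, Svil, Myh9, Rai14, Zfp608 and Camk2g carried 7 to 9 genomic regions each where peaks of the transcription factor NKX2-1 lay over peaks of PRDM16 and PRDM3. They were chosen by that number. A shared region was a stretch of at least 20 bases under a peak in at least 2 of the 3 NKX2-1 libraries that overlapped a stretch covered in both PRDM16 libraries and a PRDM3 peak. Each region was linked to the protein-coding gene with the nearest annotated end, if that end lay within 50 kb of its midpoint. Of 12062 shared regions, 10720 were linked to a gene, and the 6 genes held 49 of them. The same rule of 7 or more regions was met by 11 of 21887 protein-coding genes (0.0503%). The other 5, which are given in brief, were Hes1, Hopx, Zfp516, Ccn1 and Mbnl2. Because the number of regions chose the genes, it is a description and was not tested.

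The peaks came from CUT&RUN, a method that tethers a nuclease to an antibody on chromatin and sequences the fragments it frees around the bound protein or mark. Each reaction held 100000 epithelial cells, taken on EpCAM microbeads from pooled lungs of wild-type C57Bl6 mouse fetuses at E17.5. No genotype or treatment was compared, so the groups are the antibodies: 3 NKX2-1, 2 PRDM16, 1 PRDM3 and 3 H3K4me3 libraries. PRDM16 replicate 1 used a rabbit antibody and replicate 2 a sheep antibody. The 3 IgG samples were not analysed here, so no peak was set beside a background library. The labels do not say whether replicates came from separate pools, so the spread between them may be technical. Whole lung epithelium was used, so the cell types within it cannot be told apart.

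NKX2-1 is the homeodomain factor that specifies lung epithelium and keeps alveolar cells in their fate. PRDM16 and PRDM3 (the product of Mecom) are related zinc-finger proteins that bind DNA and recruit chromatin regulators. H3K4me3 is a histone mark of active promoters. In late fetal lung, epithelial cells take on alveolar type 1 or type 2 fates and change shape through actin and microtubule rearrangement. Of the 6 genes, Myh9 encodes the heavy chain of nonmuscle myosin IIA, a motor that pulls on actin. Svil encodes supervillin, a membrane-associated protein that binds actin and myosin. Rai14 encodes ankycorbin, an ankyrin-repeat protein found on actin structures. Mtcl1 encodes a microtubule crosslinking factor of polarised epithelial cells, Camk2g the gamma subunit of a calcium and calmodulin-dependent protein kinase, and Zfp608 a nuclear zinc-finger protein related to Zfp609.

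The NKX2-1 libraries were unequal. Of the NKX2-1 peaks, 12964 in replicate 1 reached a −log10 q of 5, against 668 in replicate 2 and 1182 in replicate 3. A q under 0.05 was reached by 76.4% of the peaks in replicate 1, 10.8% in replicate 2 and 12.9% in replicate 3. Peaks of replicates 2 and 3 named below are thus often of low confidence. A q under 0.05 was reached by 44.5% and 45.0% of the peaks in PRDM16 replicates 1 and 2 and 42.3% in PRDM3. Counts of PRDM peaks in a window thus also include many of low confidence. The median NKX2-1 peak was 478 bases long in replicate 1, 297 in replicate 2 and 298 in replicate 3. Peak names in the files carry a library code that begins with C for NKX2-1 replicate 1, H3K4me3 replicate 1 and all PRDM16 and PRDM3 libraries, and with H for the other NKX2-1 and H3K4me3 libraries. Neither the labels nor the files say what the code means. As a check of the cells, H3K4me3 lay at an end of 7 of 7 epithelial marker genes and 0 of 4 immune ones. It also lay at 1 of 4 endothelial markers (Kdr) and at 2 of 5 mesenchymal ones (Col1a1 and Col1a2). The part of such cells in the results was not tested.

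Promoter sequences are shown because all 4 of those below lay under H3K4me3 and over a shared region. RefSeq promoters (250 bases before to 50 after a transcript start, build GRCm38.p6, the assembly of mm10) were matched for 3 of the 6 genes, of which Rai14 had a pair. All 4 are on the minus strand and are written 5′ to 3′, with CpG dinucleotides in capitals.
Mtcl1 promoter, chr17:66449701-66450000: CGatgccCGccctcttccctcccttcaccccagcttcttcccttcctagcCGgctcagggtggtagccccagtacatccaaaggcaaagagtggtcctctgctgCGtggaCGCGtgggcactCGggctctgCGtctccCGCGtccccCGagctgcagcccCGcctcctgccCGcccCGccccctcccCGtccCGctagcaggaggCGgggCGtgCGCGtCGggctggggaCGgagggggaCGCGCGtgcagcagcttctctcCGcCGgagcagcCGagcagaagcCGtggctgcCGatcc
Myh9 promoter, chr15:77842126-77842425: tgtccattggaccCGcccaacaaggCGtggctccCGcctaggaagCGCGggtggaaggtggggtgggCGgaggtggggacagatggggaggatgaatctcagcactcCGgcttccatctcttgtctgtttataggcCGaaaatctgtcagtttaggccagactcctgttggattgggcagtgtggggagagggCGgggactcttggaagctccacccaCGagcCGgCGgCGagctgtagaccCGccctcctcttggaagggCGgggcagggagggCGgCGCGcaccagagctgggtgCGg
Rai14 promoter 1, chr15:10713491-10713790: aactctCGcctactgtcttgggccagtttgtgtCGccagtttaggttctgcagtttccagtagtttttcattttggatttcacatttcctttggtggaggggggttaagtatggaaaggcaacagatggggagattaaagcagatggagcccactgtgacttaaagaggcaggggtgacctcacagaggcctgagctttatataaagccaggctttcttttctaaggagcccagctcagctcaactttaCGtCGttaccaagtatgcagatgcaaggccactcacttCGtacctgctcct
Rai14 promoter 2, chr15:10714049-10714348: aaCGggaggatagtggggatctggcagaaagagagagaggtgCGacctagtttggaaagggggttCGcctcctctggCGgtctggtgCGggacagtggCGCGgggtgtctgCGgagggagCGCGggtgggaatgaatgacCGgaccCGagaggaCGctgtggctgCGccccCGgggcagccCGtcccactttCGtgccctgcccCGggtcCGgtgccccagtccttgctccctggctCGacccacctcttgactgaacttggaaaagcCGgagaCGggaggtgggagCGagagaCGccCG

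The Mtcl1 promoter held 30 CpG dinucleotides and 72% G or C, and the Myh9 promoter held 19 and 64.7%. Rai14 promoter 2 had 25 CpG dinucleotides and 67% G or C, whereas Rai14 promoter 1, just downstream, had 5 and 48%. The median of 32851 RefSeq mouse promoters of this length was 7 CpG dinucleotides and 52.7% G or C. Rai14 promoter 1 was thus the sparse one of the set, and the other 3 were CpG-rich. Peaks of all 9 libraries overlapped the Mtcl1 and Myh9 promoters and Rai14 promoter 2. At Rai14 promoter 1, peaks of 7 libraries did so, and PRDM16 replicate 2 and PRDM3 had none. Neither CACTNNAG nor CACTTG, 2 overlapping forms of the motif bound by NKX2 homeodomain proteins, occurred on either strand of these 4 windows. Of all RefSeq promoters, 16.0% held CACTNNAG and 13.6% held CACTTG.

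**Figure D1:**
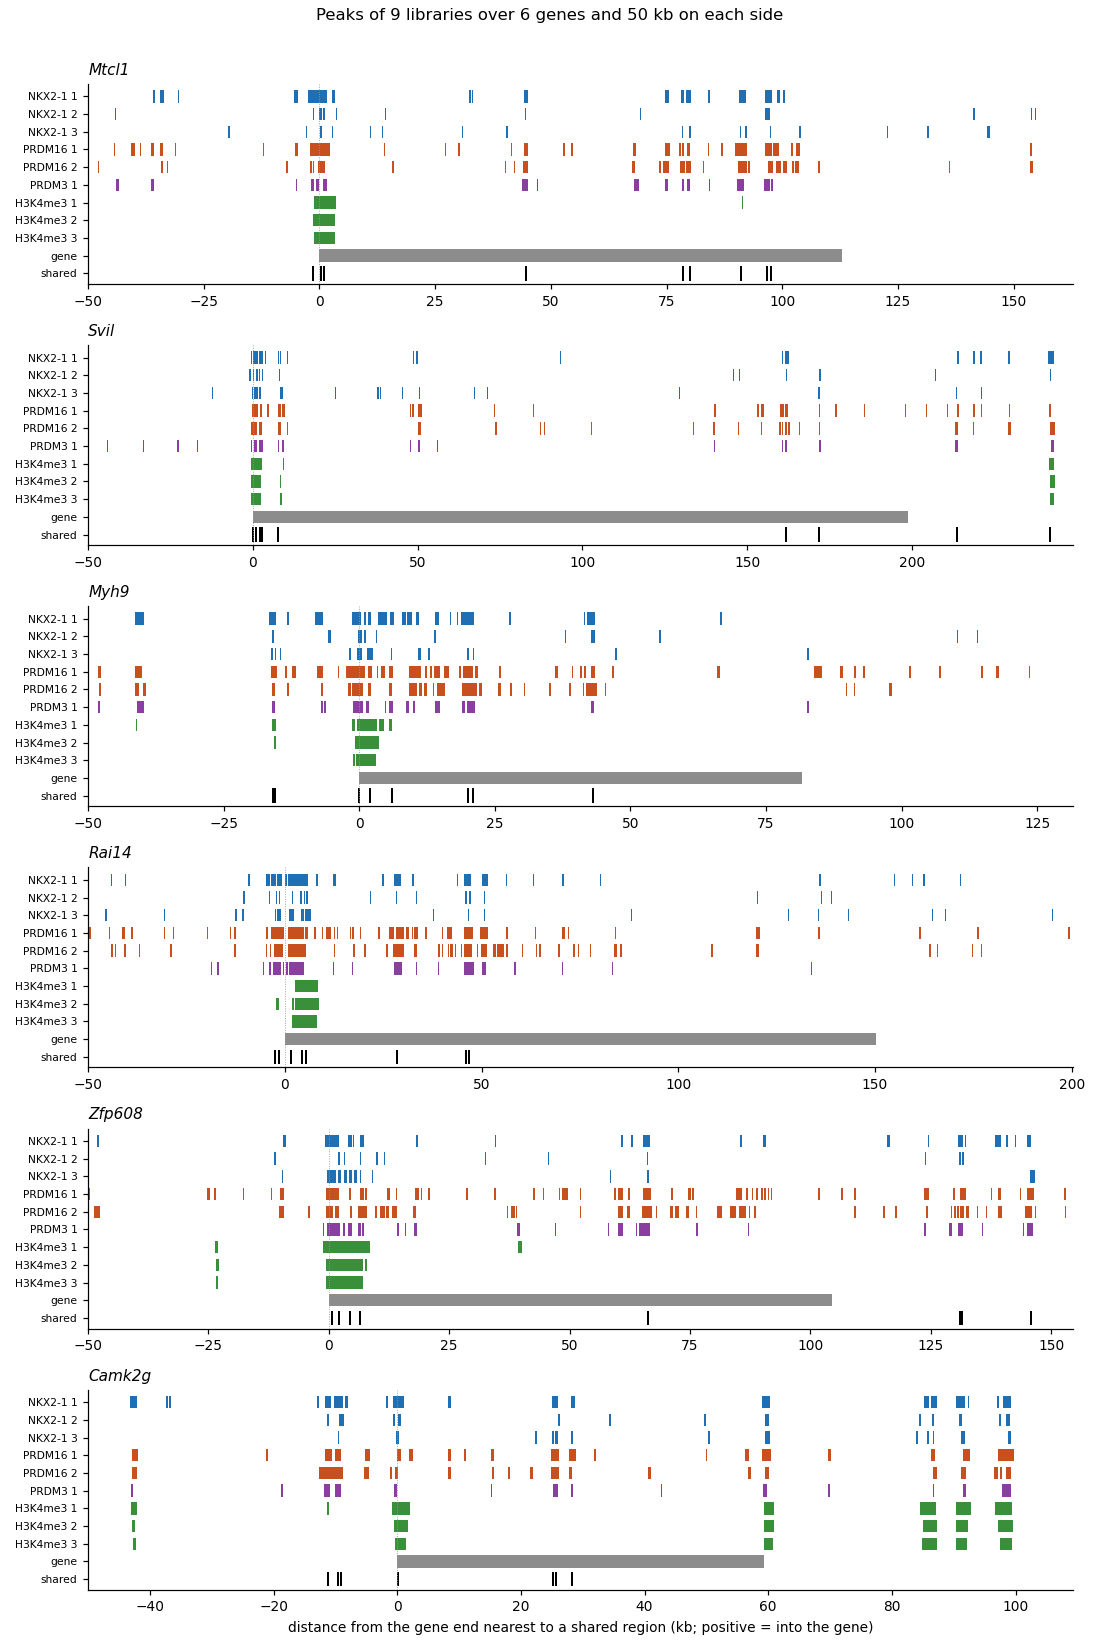
Peaks of the 9 libraries (rows, coloured by target) over each gene (grey bar) and 50 kb on each side. The horizontal axis is the distance in kb from the gene end nearest to a shared region, positive into the gene, and black ticks mark the midpoints of the 49 shared regions. The H3K4me3 blocks are broad at that end except in Rai14, where they begin inside the annotated gene, and 26 of the 49 regions overlap no H3K4me3 peak.

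Myh9 (chromosome 15, 77760585 to 77842175, 81.6 kb) had 8 shared regions, 6 inside the gene and 2 upstream of its promoter. Of these, 5 overlapped an H3K4me3 peak and 3 did not. At the promoter region (77841725 to 77842575), the deposited fold enrichment, the peak caller's ratio of signal to background, was 4.996, 3.64 and 8.49 in NKX2-1 replicates 1, 2 and 3. It was 9.28 and 6.39 in the PRDM16 libraries and 7.002 in PRDM3. This was 1 of 2 regions of Myh9 with a peak in every factor library, and its NKX2-1 replicate 3 peak ranked 244 of 79417 in that library. The other was the upstream region at 77857823 to 77858404, with NKX2-1 values of 6.11, 4.07 and 3.20, PRDM16 values of 13.6 and 4.48, and a PRDM3 value of 10.2. H3K4me3 was present there in replicates 1 and 2 and not in replicate 3. Its peak was 583 bases wide in replicate 1, against 3780 bases at the promoter. Inside the gene, the regions at 77821039 to 77821252 and 77822009 to 77822291 lay under the same PRDM16 peaks, with fold values of 7.24 in replicate 1 and 14.6 in replicate 2. Neither had H3K4me3 or a peak in NKX2-1 replicate 2.

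Svil (chromosome 18, 4920467 to 5119293, 198.8 kb), the longest of the 6 genes, had 9 shared regions. Of these, 5 lay within 7697 bases inside the end that carries H3K4me3, 2 lay in the far part of the gene, and 2 lay beyond its other end. The region at 5082191 to 5082435, 36980 bases from the nearer end, had the highest PRDM3 value over the 49 regions, with a fold of 16.4 (rank 25 of 52248 peaks). PRDM16 there was 18.4 and 7.60. NKX2-1 was 9.60 in replicate 1 and 2.32 (−log10 q of 0.06) in replicate 2, with no peak in replicate 3. The factor summits lay close together, at 14, 71 and 70 bases from the NKX2-1 replicate 1 summit for PRDM16 replicate 1, PRDM16 replicate 2 and PRDM3. No H3K4me3 peak overlapped it in any library. At the marked end, the region at 4922354 to 4923041 had peaks in all 3 NKX2-1 libraries, at 6.84, 4.07 and 3.20. The region at 5092262 to 5092442 was the only one of the 49 without a peak of NKX2-1 replicate 1. It had 2.44 in replicate 2 and 2.40 in replicate 3, with a −log10 q of 0.06 and 0.11. A region outside the gene at 5162223 to 5162729 carried H3K4me3 in all 3 libraries, at folds of 15.7, 20.1 and 15.1, with no protein-coding gene end within 1 kb.

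Rai14 (chromosome 15, 10568971 to 10719267, 150.3 kb) had 8 shared regions, 6 inside the gene and 2 outside. It was the gene with the most regions over peaks of all 3 NKX2-1 libraries among the 6, at 5 of 8. The region at 10713319 to 10714469, which spans both RefSeq promoters, had NKX2-1 values of 9.47, 3.47 and 4.00. PRDM16 was at 8.32 and 8.80 there and PRDM3 at 7.39, though over the promoters themselves the PRDM16 replicate 1 peak had 2.63. The NKX2-1 replicate 1 peak over it ran from 10713319 to 10718386, and 3 of the 8 regions lay under that peak. Inside the gene, 28429 bases from the end, the region at 10690661 to 10691014 had NKX2-1 at 8.59 in replicate 1 and 3.26 in replicate 2, PRDM16 at 7.005 and 6.19, and PRDM3 at 8.27. It lay outside H3K4me3, as did the pair of regions at 10671999 to 10673369. Rai14 was the only one of the 6 genes with no H3K4me3 within 1 kb of an annotated end in at least 2 libraries. Its mark lay inside the annotated gene, over the RefSeq promoters, from 10710762 to 10716619 in replicate 1, with peaks 5858, 6169 and 6328 bases wide in the 3 libraries.

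Mtcl1 (chromosome 17, 66336980 to 66449806, 112.8 kb) had 9 shared regions, 8 inside the gene and 1 just outside its promoter end. The region at 66358627 to 66359014, 21841 bases from the far end of the gene, had the highest values of the 49 in NKX2-1 replicate 1 and PRDM16 replicate 1. NKX2-1 reached 25.5 in replicate 1 (rank 25 of 52685 peaks) and 6.80 in replicate 3, with no peak in replicate 2. PRDM16 was 19.6 in replicate 1 and 6.75 in replicate 2, and PRDM3 was 14.4 (rank 63 of 52248). Summits of the PRDM16 and PRDM3 peaks lay 54, 57 and 83 bases from that of NKX2-1 replicate 1. No H3K4me3 peak overlapped the region, though a peak of 220 bases lay beside it at 66358301 to 66358520 in replicate 1 alone. At the promoter end, 3 regions lay under a single NKX2-1 replicate 1 peak with a fold of 13.4 and a single PRDM16 replicate 1 peak with a fold of 11.6. The region over the transcript start, 66449160 to 66449937, had NKX2-1 at 3.15 in replicate 2 and 3.19 in replicate 3. The −log10 q of these peaks was 0.62 and 0.76. An H3K4me3 peak of every library overlapped all 3 regions, with folds of 33.4, 88.3 and 67.5, though the outermost region lay at the edge of that peak in replicates 1 and 3. The other 6 regions of the gene overlapped no H3K4me3 peak.

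Camk2g (chromosome 14, 20734873 to 20794157, 59.3 kb), the shortest of the 6 genes, had 7 shared regions, 4 inside and 3 outside. Of these, 5 lay outside H3K4me3. The region over its upper end, 20793627 to 20794390, had NKX2-1 at 6.96, 4.88 and 4.79, the only region of the gene with peaks in all 3 libraries. PRDM16 was weaker there, at 4.31 and 3.37, and PRDM3 was at 2.71, with a −log10 q of only 0.52. PRDM16 was stronger outside the gene, 9032 bases from that end, at 20802865 to 20803513, where it was 11.9 and 7.99 and NKX2-1 was 6.96 in replicate 1 and 3.26 in replicate 2. No H3K4me3 peak overlapped that region. The window of Camk2g is crowded, and 4 more shared regions in it were linked to its neighbours Fut11, Chchd1, Zswim8 and Ndst2. The strongest NKX2-1 replicate 1 peak of the window, at 13.4, ran from 20733805 to 20735197, over the lower end of Camk2g, and the shared region under it was linked to Ndst2.

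Zfp608 (chromosome 18, 54888045 to 54992591, 104.5 kb) had 8 shared regions, 4 at the end under H3K4me3, 1 within the gene and 3 beyond the other end. The region within the gene, 54926151 to 54926579, had no H3K4me3 and a peak in every factor library. That of NKX2-1 replicate 2 had a −log10 q of only 0.06. NKX2-1 was at 7.27, 2.44 and 4.79, PRDM16 at 7.74 and 10.8, and PRDM3 at 8.48. These were the highest values over the regions of the gene in NKX2-1 replicates 1 and 3, PRDM16 replicate 2 and PRDM3. The longest of the 49 regions, at 1902 bases (54991045 to 54992946), lay at the marked end, with NKX2-1 at 4.06 in replicate 1 and 4.53 in replicate 3 and none in replicate 2. The window of Zfp608 also held the most PRDM16 peaks of the 6, 48 in replicate 1 and 45 in replicate 2. Of these, 7 and 11 reached a −log10 q of 5. Of the 25 PRDM16 stretches in this window, 7 overlapped an NKX2-1 stretch and 15 overlapped neither NKX2-1 nor PRDM3. In the 6 windows these were 43 and 50 of 112, and in the genome 14314 and 16059 of 39386.

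Across the 49 regions, 36 lay inside the linked gene. Shared regions of the 6 genes lay outside H3K4me3 in 26 of 49 cases (53.1%, Wilson 95% interval 39.4 to 66.3), against 2906 of 12062 of all shared regions (24.1%, 23.3 to 24.9). The intervals cover counting error only, regions of a gene share peaks, and no test was made. Of the 49, 14 (28.6%) lay within 2.5 kb of a gene end, against 7249 of all shared regions (60.1%). The 49 regions chose the genes, and a rule of many regions per gene favours regions away from a gene end. The contrasts with all shared regions are therefore not independent of that choice and are descriptions. Peaks of NKX2-1 replicate 1 were present at 48 of the 49, against 11937 of all 12062 shared regions. Without that library, the 6 genes had 13 regions, of which 23.1% lay outside H3K4me3. With links limited to 20 kb they had 29 regions, of which 24.1% did. The share over all shared regions is not given for either setting. These percentages thus cannot be set beside the 24.1% of all shared regions as reported.

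**Figure D2:**
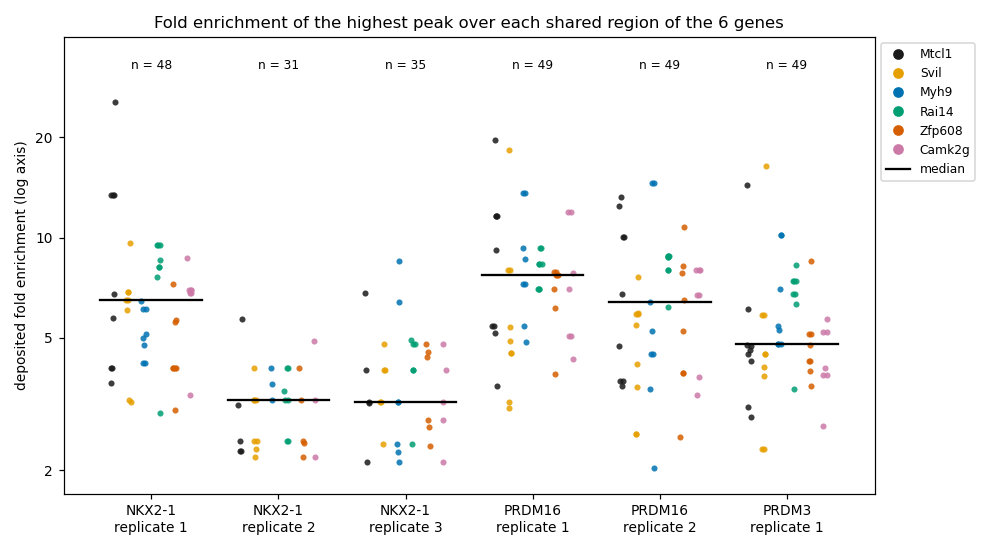
Deposited fold enrichment (log axis) of the highest peak over each of the 49 shared regions, by factor library (horizontal axis) and gene (colour), with the median as a bar and the number of regions with a peak above. Medians run from 3.20 in NKX2-1 replicate 3 to 7.74 in PRDM16 replicate 1, and single regions of Mtcl1 and Svil stand above the rest in several libraries.

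Median NKX2-1 signal over the 49 regions was lower than that over all shared regions in every library. PRDM3 signal was near it, and the PRDM16 libraries differed in direction. The median NKX2-1 fold was 6.47, 3.26 and 3.20 in replicates 1, 2 and 3 at the 6 genes, against 7.04, 3.64 and 4.00 over all shared regions. For PRDM16 it was 7.74 and 6.39 at the 6 genes, against 7.85 and 5.45, and for PRDM3 4.78, against 4.75. The medians at the 6 genes were lower in all 3 NKX2-1 libraries and in PRDM16 replicate 1, and higher in PRDM16 replicate 2. Of the NKX2-1 peaks at the 49 regions, 47 of 48 in replicate 1 had a q under 0.05 (97.9%), against 97.7% over all shared regions. In replicate 2 it was 7 of 31 (22.6%), against 47.0%, and in replicate 3 it was 17 of 35 (48.6%), against 56.0%. Peaks of all 3 NKX2-1 libraries were present at 16 of the 49 regions (32.7%), against 6053 of all shared regions (50.2%). From the NKX2-1 replicate 1 summit, the PRDM16 summit was a median of 246.5 bases away in replicate 1 and 181 in replicate 2, and the PRDM3 summit 208.5 bases, over 48 regions.

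Regions of a gene were often neighbours under the same peak of NKX2-1 replicate 1, PRDM16 or PRDM3. The 48 regions with a peak of NKX2-1 replicate 1 lay under 34 separate peaks of that library, or 70.8 peaks per 100 regions, against 90.6 per 100 over all shared regions. In the NKX2-1 libraries with shorter peaks this was not so, with 33 peaks over 31 regions in replicate 2 and 35 over 35 in replicate 3. The 49 regions lay under 35 peaks in each PRDM16 library and 38 PRDM3 peaks. For PRDM16 this was 71.4 peaks per 100 regions in each library, against 92.0 and 94.0 over all shared regions. For PRDM3 it was 77.6, against 97.2. Regions at most 1 kb apart, counted as 1, numbered 7 in Mtcl1, 6 in Svil, Myh9 and Zfp608, and 5 in Rai14 and Camk2g. Mtcl1 was then the only gene of the genome with 7. The shared stretches were short, with a median of 366 bases (range 42 to 1902), against 524 over all shared regions.

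**Figure D3:**
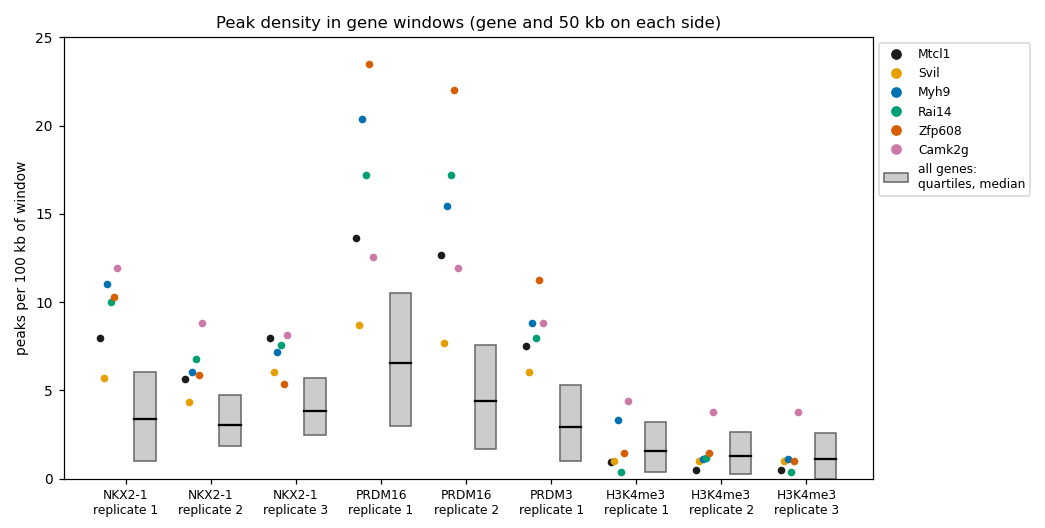
Peaks per 100 kb of window (gene and 50 kb on each side) in the 6 genes (coloured points) and in all protein-coding genes (box, quartiles and median), for the 9 libraries on the horizontal axis. All 6 genes lie above the median of all genes in the 6 factor libraries, and for H3K4me3 the points scatter around it.

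The windows of the 6 genes held 119, 79 and 91 NKX2-1 peaks in replicates 1, 2 and 3, 203 and 185 PRDM16 peaks and 107 PRDM3 peaks. Per 100 kb, the median of the 6 was 10.1, 5.96 and 7.37 for NKX2-1, against 3.37, 3.04 and 3.85 over all gene windows. It was 15.4 and 14.1 for PRDM16, against 6.58 and 4.41, and 8.39 for PRDM3, against 2.92. These peaks chose the genes, so the excess is a description. Svil was the lowest of the 6 in NKX2-1 replicates 1 and 2 and in all PRDM libraries, and Zfp608 was the highest in PRDM16 and PRDM3. Of 71 NKX2-1 stretches in the 6 windows, 54 overlapped both PRDM proteins (76.1%), against 12062 of 23795 in the genome (50.7%). The 54 include the 49 regions that chose the genes, so this share is also a description. Of 112 PRDM16 stretches, 43 overlapped NKX2-1 (38.4%), against 36.3% in the genome.

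H3K4me3 peaks did not enter the choice of the genes, but 9156 of all 12062 shared regions overlapped one. Cover in genes chosen by shared regions is therefore not independent of that choice. The mark covered 3.62%, 3.17% and 2.90% of the 6 windows in replicates 1, 2 and 3, against 1.76%, 1.47% and 1.31% of all gene windows. Every library gave a higher cover in the 6 windows. The means were 3.23% ± 0.363 in the 6 windows and 1.51% ± 0.225 in all gene windows (SD, n = 3), a difference of 1.72 ± 0.137 percentage points. The exact two-sided sign-flip permutation test gave p = 0.25, the smallest that 3 libraries allow. The SD and the test cover the spread between libraries over the same windows, not that between genes. Camk2g, whose window holds the marked ends of several neighbours, had the most cover, and without it the difference was 1.15. Svil had the least, at 1.63%, 1.66% and 1.66% in replicates 1, 2 and 3. The number of H3K4me3 peaks was not higher, with a median over the 6 of 1.24, 1.15 and 0.991 per 100 kb, against 1.57, 1.29 and 1.14 over all gene windows.

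The mark was broad at the gene ends. At least 2 libraries had H3K4me3 within 1 kb of an end of 5 of the 6 genes, against 12198 of 21887 genes (55.7%). The stretch shared by at least 2 libraries at that end was 7737 bases in Zfp608, 4528 in Mtcl1, 3874 in Myh9, 3203 in Svil and 2261 in Camk2g, against a median of 1714 over all marked genes. The Zfp608 stretch was wider than that of 99.7% of marked genes, and the Camk2g stretch wider than that of 72.1%.

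**Figure D4:**
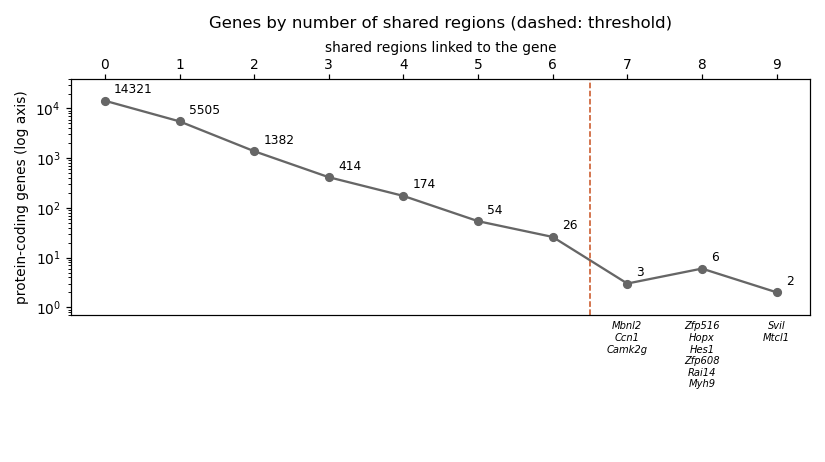
Number of protein-coding genes (vertical log axis) by number of linked shared regions (horizontal axis), with the threshold of 7 dashed and the 11 genes at or past it named. There are 14321 genes with none, 26 with 6 and 2 with 9.

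Most genes had few shared regions. At least 1 was linked to 7566 of 21887 genes (34.6%), 26 genes had exactly 6, and 3 had exactly 7. Just outside the threshold, with 6, were, alphabetically, Abcd3, Ahdc1, Atp11a, Azin1, Bahcc1 and Bcl9l, and just inside it, with 7, were Camk2g, Ccn1 and Mbnl2. Hes1, Hopx and Zfp516 had 8. Hes1 encodes a repressor in Notch signalling and Hopx a homeodomain-only protein of alveolar type 1 cells. Hes1 and Ccn1 are only 2.44 and 3.02 kb long, and 8 of 8 and 6 of 7 of their regions lay outside the gene. Regions outside H3K4me3 were 4 of 8 in Hes1, 6 of 8 in Hopx, 2 of 8 in Zfp516, 4 of 7 in Ccn1 and 3 of 7 in Mbnl2. The H3K4me3 stretch at the gene end was 8626 bases in Zfp516 and 739 in Hopx, whose wider mark, 3163 to 4269 bases, lay inside the gene at a RefSeq promoter. The 6 genes described here are long, with a median of 108.7 kb, against 17.2 kb over all protein-coding genes. Genes of 50 kb or more averaged 0.797 shared regions, against 0.490 over all genes, and 8 of the 11 genes past the threshold were of that length, against 4945 of all 21887.

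Related genes were read from 4 lists chosen with earlier results of these data known. Of the actomyosin and actin-binding genes, 25 of 31 other than Svil, Myh9 and Rai14 had a shared region, with a median of 1, against 34.6% of all genes. Actg1, a cytoplasmic actin, had 5. Cald1 and Myl9, which encode a regulator of contraction and a myosin light chain, had none. Of the microtubule genes, 15 of 19 other than Mtcl1 had a region. Kif5b, a kinesin heavy chain, had 3, Mapre2 and Mapre3, which encode plus-end binding proteins, had 2 each, and Clip1 and Dst had none. Of the calcium and calmodulin kinase genes, 7 of 15 other than Camk2g had a region. Camk2d, which encodes another subunit of the same kinase, and Calm2, a calmodulin gene, had 3 each, and Camk1 and Camk1g had none. Camk2a and Camk2b, the remaining subunit genes of that kinase, had none either, and are named here after their values were seen. Of the 7 genes grouped with Zfp608, which were Zfp609 and cohesin-loading and Integrator genes, 3 had a region. They were Ints6 with 2 and Zfp609 and Mau2 with 1 each, and Ints1 and Ints11 had none. These lists hold widely used genes. H3K4me3 lay at an end of 29 of the 31 other actomyosin genes and 18 of the 19 microtubule genes. It also lay at an end of 11 of the 15 kinase genes and 6 of the 7 genes grouped with Zfp608. The part of an active promoter in these counts was not tested.

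The genes whose windows had peak densities most like those of the 6 were found by Euclidean distance over log2(peaks per 100 kb + 1) in the 9 libraries. Mtcl1 was nearest to Lifr and Slc12a2, at distances of 0.44 and 0.47, against a median of 3.53 to all genes. Svil was nearest to Tbc1d8 and Gmfg-ps, Myh9 to Gse1 and Foxo3, and Rai14 to Hs2st1 and Sypl. Zfp608 was nearest to F3 and Cdh1, and Camk2g to Slbp and Rinl. These neighbours had 0 to 6 shared regions, against 7 to 9 in the 6 genes. The 6 genes were chosen by that number, so the gap is set by the rule.

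**Figure D5:**
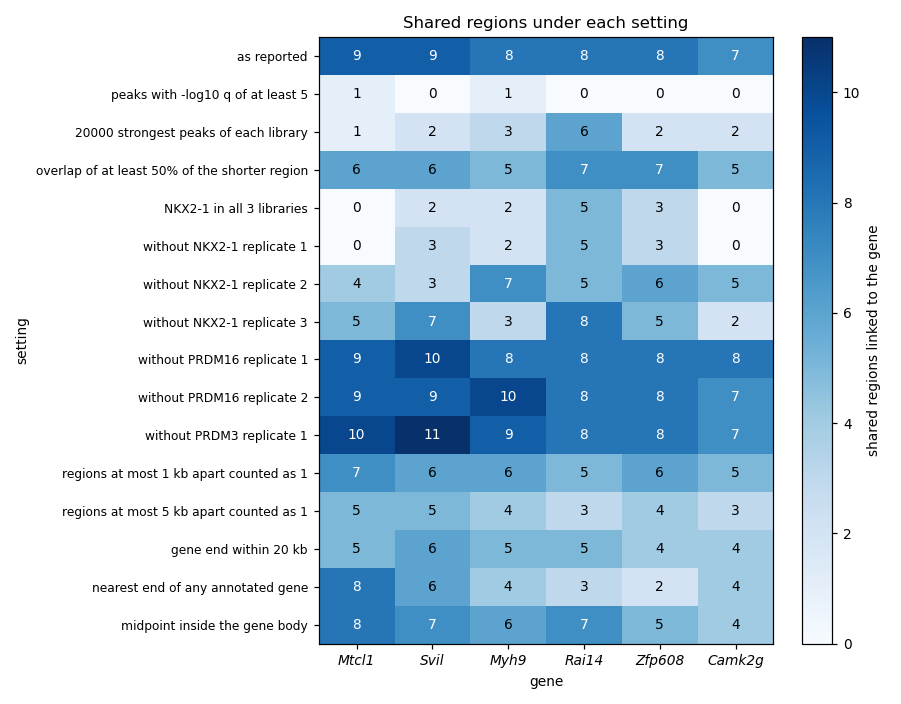
Shared regions linked to each of the 6 genes (columns) under the reported setting (top row) and 15 others. Most or all genes are lower in every other row except those without a PRDM16 or PRDM3 library, where none is lower, and Rai14 has 5 regions in the 2 rows where Mtcl1 and Camk2g both have 0.

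The count of each gene moved with the NKX2-1 libraries used and with the annotation. With the same bases required under peaks of all 3 NKX2-1 libraries, a stricter demand than a peak of each library somewhere over the region, or without replicate 1, Mtcl1 and Camk2g had 0 regions and Rai14 had 5. Leaving out replicate 1 requires a peak in both libraries that remain, so it is stricter than 2 of 3. Over the genome, 5772 regions were left with all 3 libraries and 5927 without replicate 1, against 12062 as reported. Among the 20000 strongest peaks of each library, Rai14 had 6 and the other described genes 1 to 3. Without PRDM3, whose list has no replicate, Svil had 11 and Mtcl1 10. That setting drops a requirement, so no count could fall. When long noncoding RNA genes and pseudogenes were also allowed as the nearest gene, 27 of the 49 regions stayed with the 6 genes, 8 of 9 in Mtcl1 but 2 of 8 in Zfp608. When a region counted for the gene whose body holds its midpoint, 25 genes had 7 or more, of which 3 were among the 6.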

How the data were processed

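Peak lists of 9 of the 12 samples were used, with groups and replicate numbers from the labels. Per the submitters' processing notes, the tools were Trimmomatic, Bowtie2, MACS2 and HOMER and the genome build was mm10, with no version or setting recorded. The authors deposited 1 list of peaks per sample. The deposited fold enrichment is a ratio of signal to background, and was used to describe and rank peaks within a library. The deposited −log10 p and −log10 q are the authors' peak confidence. The deposited score equals, from its values, 10 × −log10 p in the factor lists and 10 × −log10 q in the H3K4me3 lists. Read depth is unknown. The factor lists hold many peaks of low confidence, with a q under 0.05 for 76.4%, 10.8% and 12.9% of the NKX2-1 peaks. It was 44.5% and 45.0% of the PRDM16 peaks and 42.3% of the PRDM3 peaks.

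Peaks outside the autosomes, X and Y were left out. The fold given for a region is that of the highest peak over it, and neighbouring regions can share a peak. The gene table (RefSeq, GRCm38.p6) gives neither strand nor exons, so links went to either gene end. The members, lists and settings were chosen with earlier results of these data known. Named genes were the 6, the 6 first alphabetically at 6 and 7 regions, the 2 nearest in peak density, neighbours sharing a window, and in each list up to 4 with the most regions and 2 without. Some list genes tied in number are not named, and a list gene is not reported here. The intersection steps were tested on simulated intervals. Cover by H3K4me3 was compared within libraries by an exact sign-flip permutation test. Python 3.11.15, numpy 2.4.6, pandas 2.3.3, scipy 1.17.1 and matplotlib 3.10.9 were used.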

Additional observations from a re-analysis of the deposited data

How the results depend on the processing

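The number of genes with 7 or more shared regions, 11 as reported, fell to 0 with peaks reaching a −log10 q of 5, with each library's 20000 strongest peaks, with NKX2-1 in all 3 libraries, and with regions at most 5 kb apart counted as 1. It was 6 when the overlap had to span 50% of the shorter stretch, 1 with regions at most 1 kb apart counted as 1, 1 with a gene end within 20 kb, 2 with the nearest end of any annotated gene, and 25 with the midpoint inside the gene body. Leaving out each factor library gave 0 (without NKX2-1 replicate 1) to 34 (without PRDM3). The rule is stricter without an NKX2-1 library, as both that remain are then required, and looser without a PRDM library.

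The 6 genes, with 49 regions as reported, had 2 at the −log10 q of 5, 16 with the strongest peaks, 12 with NKX2-1 in all 3, 24 with 5 kb joining, 29 with the 20 kb link and 27 with any annotated gene. Without each library they had 13 (NKX2-1 replicate 1) to 53 (PRDM3). All shared regions also changed in number, from 12062 as reported. There were 618 at the −log10 q of 5, 4069 with the strongest peaks and 5772 with NKX2-1 in all 3. There were 10027 with 5 kb joining, 5927 without NKX2-1 replicate 1 and 15401 without PRDM3. The percent of the regions of the 6 genes outside H3K4me3 was 53.1 as reported. It was 37.5 with the strongest peaks, 16.7 with NKX2-1 in all 3, 24.1 with the 20 kb link and 62.5 with 5 kb joining. Leaving out each library gave 23.1 (without NKX2-1 replicate 1) to 59.2 (without H3K4me3 replicate 1). The causes were not tested.

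The difference in H3K4me3 cover stayed above 0 in all settings run, at 1.15 to 2.38 percentage points. The upper value is for all 11 genes, a setting added after the data were seen. No paired analysis was possible because no antibody groups were compared, so replicate numbers had no samples to pair. The H3K4me3 test pairs the 2 kinds of window within each library.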
